A study of Mus musculus with 14 samples.

Results

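Brain RNA of aged mice fed β-lapachone (βL) was compared directly with brain RNA of aged mice on calorie restriction (CR), using 4 of the 14 arrays of the study, 2 per diet. The question was in which transcripts the brain under a compound that engages NAD metabolism differed from the brain under food restriction. The members were the probes above background (detection p under 0.05) on at least 2 of these 4 arrays, which were 14193 of the 25697 probes on the array. The animals were male C57BL/6J mice, 13 months old when the diets began. CR mice received 70% of the amount eaten by control mice, and βL mice had 0.066% of the compound in their feed. The labels give the tissue as brain and the design text adds cortex. Whether the 2 arrays of a diet held RNA of separate mice is stated neither in the labels nor in the methods. The p-values therefore reflect the spread between the arrays, and that spread may be technical. The arrays were Illumina Mouse-8 v2 BeadChips, on which bead-bound probes bind labelled RNA and the brightness of a bead type measures its transcript. Levels are given as log2 of the normalized intensity, and differences as βL minus CR.

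βL is an ortho-naphthoquinone that the enzyme NQO1 reduces at the expense of NADH, which leaves more NAD+ in the cell. CR is the standard dietary intervention for ageing in rodents. Brain RNA holds transcripts of neurons and glia and, depending on what is dissected, of the choroid plexus, the epithelium in the ventricles that makes cerebrospinal fluid and secretes transthyretin. Immediate early genes are transcribed within minutes of neuronal firing and so carry a record of recent activity. In bulk RNA, fewer cells of a type and less RNA per cell cannot be told apart.

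From 13844 to 14230 probes were above background on each, median intensities were 79.9 to 92.0, and arrays correlated with r = 0.993 within CR, 0.995 within βL and 0.990 to 0.994 between diets, across probes, which are not independent replicates. The SD of the difference between the 2 arrays was 0.25 log2 in CR and 0.20 in βL. CR replicate 1 stood lower than all 3 other arrays by more than 0.5 log2 for 273 probes, against 12 to 32 probes for any other array. The number of arrays limits the precision. An exact permutation test of 2 arrays against 2 cannot give a two-sided p below 0.333, so the tests below rest on limma, which shares the spread across probes. The cortical layer list was measured with 16 of its 20 genes on the array and had no call in either direction, and Slc17a7, the glutamate transporter of cortical excitatory neurons, was at 11.91 and 11.93 on CR and at 12.30 and 12.21 on βL, a difference of 0.33 that did not pass (adjusted p = 0.505 from limma).

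limma called 20 probes at an adjusted p under 0.05, all of them higher on βL and 0 lower. These were 0.141% of the probes tested. At an unadjusted p under 0.05, 586 probes were higher (4.13%) and 613 lower (4.32%). The methods' t-test after Benjamini-Hochberg adjustment called 1 higher and 1 lower. The lower one was the 1 probe with no spread within either diet, where that t-test has nothing to measure a difference against. The 20 probes stood for 18 genes and 1 probe with no gene name. Of the 18 genes, 8 belonged to the choroid plexus list, 4 to the immediate early list, 2 to the red cell list, and 1 each to the thalamic list (Prkcd) and the hypothalamic list (Pmch), while Ecrg4 and Wfdc2 were in none. The calls depended on having both arrays of a diet. limma called 3 probes without CR replicate 1, 6 without CR replicate 2 and 0 without either βL replicate 1 (295 higher at an unadjusted p under 0.05) or βL replicate 2 (365 higher), where the lone array was assumed to vary like the other diet. No called probe changed its direction in these fits, and Ttr stayed between 2.81 and 2.89.

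**Figure D1:**
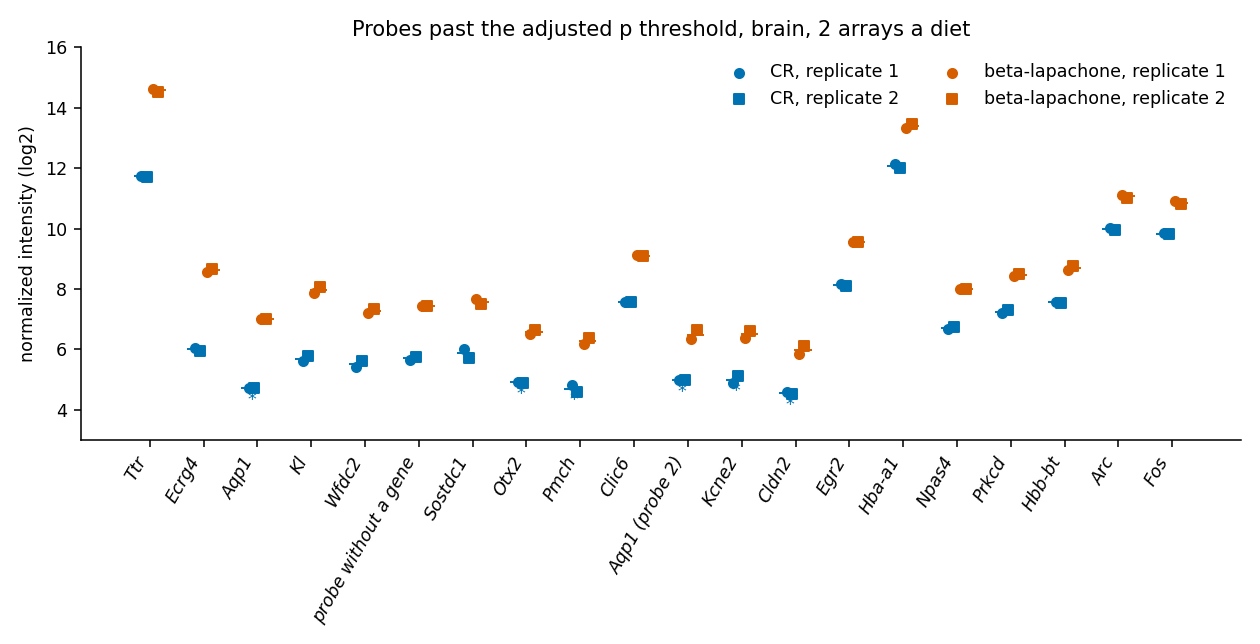
Normalized intensity (log2) of the 20 called probes on the 2 CR arrays (blue) and the 2 βL arrays (orange), ordered by the difference, with short lines at the diet means and an asterisk under CR values not above background on either CR array. The arrays of the 2 diets do not overlap for any of these probes, and Ttr has the largest difference of means among them, 2.85 log2.

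**Figure D2:**
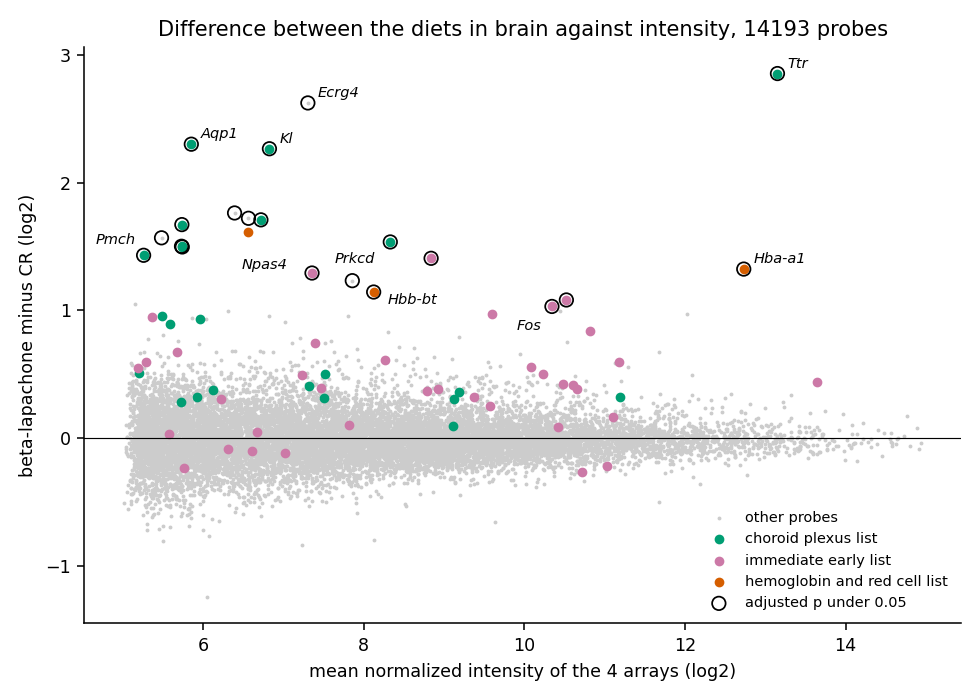
Difference between the diets (βL minus CR, log2) against the mean intensity of the 4 arrays for all 14193 probes, with probes of 3 gene lists coloured and the 20 called probes ringed. All ringed probes lie above 0.

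The choroid plexus list held 8 of the 18 called genes. Transthyretin (Ttr), the thyroid hormone carrier of the cerebrospinal fluid, was at 11.74 and 11.71 on the CR arrays and at 14.63 and 14.53 on the βL arrays. It was thus 7.23-fold higher on βL, a difference of 2.85 log2 (SE 0.10, adjusted p = 0.00286 from limma). Before any normalization its intensity was 3709 and 3604 on CR against 24608 and 22857 on βL, and it was among the brightest probes of the βL arrays. Klotho (Kl), the co-receptor of FGF23 that is shed into the cerebrospinal fluid, was at 5.63 and 5.76 on CR and at 7.85 and 8.07 on βL. It was 4.81-fold higher (2.27 log2, SE 0.12, adjusted p = 0.0109 from limma).

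Called too were Aqp1, Kcne2, Cldn2 and Clic6. Aqp1, the water channel of the apical membrane of this epithelium, was measured by a pair of probes. The brighter one was at 4.70 and 4.71 on CR, not above background, and at 7.01 on both βL arrays, which put βL at least 3.40-fold above CR (adjusted p = 0.00286 from limma). The other gave at least 2.37-fold (adjusted p = 0.0358 from limma). Bounds of this kind set the βL mean against the lowest signal that counted as detected on each CR array, or the probe's own signal where that was higher. Kcne2, a potassium channel subunit, was at 4.88 and 5.11 on CR and at 6.36 and 6.62 on βL, at least 2.38-fold higher (adjusted p = 0.0450 from limma). Cldn2, the claudin of leaky epithelia, went from 4.57 and 4.52 to 5.85 and 6.11, at least 1.67-fold higher (adjusted p = 0.0346 from limma). These 3 genes were undetected on both CR arrays, so the filter kept them through βL alone. Clic6, of the chloride intracellular channel family, was detected everywhere, at 7.56 and 7.57 on CR, and on βL at 9.11 and 9.09 (2.90-fold, adjusted p = 0.0113 from limma).

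Otx2 and Sostdc1 completed the called genes of the list. Otx2, the homeobox factor that the choroid plexus needs to form, was at 4.93 and 4.88 on CR, not above background, and at 6.52 and 6.63 on βL, at least 2.52-fold higher (adjusted p = 0.0113 from limma). Sostdc1, a secreted antagonist of BMP and Wnt signals, was at 6.02 and 5.72 on CR and at 7.65 and 7.50 on βL (3.27-fold, adjusted p = 0.0301 from limma). Ecrg4, which encodes augurin, a secreted peptide precursor known from choroid plexus epithelium, was not in the list. It had the next largest difference after Ttr, from 6.05 and 5.94 on CR to 8.58 and 8.66 on βL (6.17-fold, adjusted p = 0.00286 from limma). Wfdc2, a secreted whey acidic protein of epithelia, rose 3.39-fold from 5.40 and 5.62 to 7.22 and 7.34 (adjusted p = 0.0169 from limma). The probe with no gene name had a difference of 1.72 log2 (adjusted p = 0.0109 from limma).

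Of the 30 choroid plexus genes listed, 25 were on the array and 20 were measured. All 20 lay above 0 with a median of 0.72 log2, where all 9738 genes had a median of -0.01 and 4685 lay above 0. Of the 20, 8 were called, where 0.185% of all genes were called higher. Of the same 20, 6 were undetected on both CR arrays and passed the filter through βL alone, so that they had to differ. Among the 14 members above background on all 4 arrays, all 14 lay above 0 with both βL arrays above both CR arrays, 4 were called, 11 had an unadjusted p under 0.05 and the median was 0.37. The arrays lay apart in this direction for 18.9% of the 8973 genes detected on all 4 arrays. Members that did not pass ranged from 0.95 for Lbp to 0.10. Lbp, which binds lipopolysaccharide, was not above background on CR and at least 1.66-fold higher on βL, just outside the threshold (adjusted p = 0.0519 from limma). Igf2, a growth factor made by choroid plexus and leptomeninges, was at 10.98 and 11.09 on CR, and on βL at 11.36 and 11.34, a difference of 0.32 (adjusted p = 0.527 from limma). The members' summed intensity was 7995 and 8086 on the CR arrays and 32035 and 30299.9 on the βL arrays, where most of it came from Ttr. With the authors' own normalized values the median of the list was 0.35, and Cldn2, Kcne2 and 1 probe of Aqp1 no longer passed.

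Markers of the tissues next to the choroid plexus had no call. Of 9 ependymal genes measured, which mark the ciliated lining of the ventricles, 6 lay above 0 with a median of 0.08. Of 12 meningeal and perivascular fibroblast genes, 6 lay above 0 with a median of 0.01. In each of these lists both βL arrays lay above both CR arrays for 4 of the 9 members detected on all 4 arrays, and 2 of the 9 had an unadjusted p under 0.05 with βL higher, while 1 meningeal member had one with βL lower. The 4 were 44.4% of each list, beside 18.9% of all 8973 genes detected on all 4 arrays. Of those 8973 genes, 341 had such a p with βL higher and 293 with βL lower. The part that the dissection had in the choroid plexus difference was not tested, and the amount of choroid plexus taken with each sample is not given in the sources used here.

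Hemoglobin transcripts moved with the choroid plexus genes. Hba-a1, an alpha-globin gene, was at 12.12 and 12.02 on CR and at 13.33 and 13.46 on βL, 2.50-fold higher (adjusted p = 0.0301 from limma). Hbb-bt, a beta-globin gene, was at 7.58 and 7.53 on CR and at 8.64 and 8.75 on βL, 2.21-fold higher (adjusted p = 0.0358 from limma). Both genes have near-identical copies, and which copy was measured is uncertain. Alas2, the first enzyme of heme synthesis in red cell precursors, was at 5.70 and 5.82 on CR, and on βL at 7.16 and 7.57 (1.61 log2, adjusted p = 0.0519 from limma), just outside the threshold. These were the 3 measured of 6 red cell genes on the array, and their summed intensity was 4398 to 4699 on CR and 10855 to 11865 on βL. Endothelial and pericyte genes, which mark the vessel wall and not its content, had no call. All 14 measured lay above 0, with a median of 0.14 and a range of 0.002 to 0.50, and the arrays lay apart in 4 of the 12 detected on all 4 arrays. Those 4 were 33.3% of the 12, beside 18.9% of all genes detected on all 4 arrays. Whether blood left in the tissue had a part in any difference was not tested.

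Immediate early genes were the next group. Egr2, a zinc finger factor induced by synaptic activity, was at 8.17 and 8.11 on CR and at 9.54 and 9.55 on βL, 2.65-fold higher (adjusted p = 0.0169 from limma). Npas4, an activity-regulated factor that shapes inhibitory synapses, was at 6.68 and 6.75 on CR and at 8.00 and 8.01 on βL, 2.45-fold higher (adjusted p = 0.0237 from limma). The 2 arrays of a diet differed by less than 0.1 log2 for both genes. Arc, which regulates the trafficking of AMPA receptors at active synapses, was at 10.01 and 9.96 on CR and at 11.12 and 11.01 on βL, 2.12-fold higher (adjusted p = 0.0427 from limma). Fos, the classic marker of recently active neurons, was at 9.84 and 9.82 on CR and at 10.91 and 10.81 on βL, 2.04-fold higher (adjusted p = 0.0450 from limma). Of the called probes, Fos and Kcne2 lay just inside the threshold. Arc and Fos did not pass with median scaling or without the filter on dim probes.

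The promoters of 3 of these genes are printed because stimulus-driven transcription is known to act through short elements upstream of them. Each sequence gives the 250 bases before the annotated start from RefSeq (GRCm38.p6), on the gene's strand. In Fos (chr12:85473640-85473889, plus strand) and Npas4 (chr19:4989972-4990221, minus strand) the capitals mark TGACG, the core of the cAMP response element that CREB binds, on either strand. In Egr2 (chr10:67537316-67537565, plus strand) they mark the serum response element, the box bound by serum response factor.
Fos: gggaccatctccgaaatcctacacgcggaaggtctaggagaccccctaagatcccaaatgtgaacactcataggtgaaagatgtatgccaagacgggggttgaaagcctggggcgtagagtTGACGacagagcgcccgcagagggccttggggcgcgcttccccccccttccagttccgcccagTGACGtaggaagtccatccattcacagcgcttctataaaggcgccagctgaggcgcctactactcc
Npas4: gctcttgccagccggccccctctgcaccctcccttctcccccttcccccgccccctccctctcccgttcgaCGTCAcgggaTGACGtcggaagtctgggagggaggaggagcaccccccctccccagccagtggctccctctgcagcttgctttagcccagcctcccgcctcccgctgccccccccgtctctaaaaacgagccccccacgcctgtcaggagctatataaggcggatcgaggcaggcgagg
Egr2: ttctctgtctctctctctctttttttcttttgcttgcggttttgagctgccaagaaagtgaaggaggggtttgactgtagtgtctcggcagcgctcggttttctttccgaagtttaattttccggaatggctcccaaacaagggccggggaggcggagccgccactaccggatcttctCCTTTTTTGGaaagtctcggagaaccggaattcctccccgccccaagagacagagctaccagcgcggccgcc
The core began 129 and 66 bases before the start in Fos, and 179 and 169 bases before it in Npas4, the farther one on the opposite strand. The serum response element of Egr2 began 72 bases before this start and lay within 4 of the 5 promoter entries of the gene. Over all 32851 promoter windows of this length, 17.8% held the core and 1.47% the serum response element. Of the 18 called genes, 14 had an entry, and Arc was not among them. Sites farther upstream than the 250 bases were not searched. Within these windows the core was in 6 of the 14 (Ecrg4, Egr2, Fos, Kcne2, Npas4 and Otx2) and the serum response element in Egr2 alone. The full cAMP response element TGACGTCA, the glucocorticoid receptor element and the D-box TTATGTAA were in 0 of the 14, beside 1.55%, 0.387% and 0.819% of all windows. The E-box CACGTG was in 2 (6.02% of all), the heat shock core GAANNTTC in 4 (6.69%), the antioxidant element TGACNNNGC in 3 (10.2%) and TAATCC, a core that Otx2 binds, in Otx2 alone (6.25%). A called gene was counted where any of its entries held the motif, and a gene can have several entries. The percentages are shares of single windows, so counts and percentages are in unlike units and cannot be compared directly. Both strands were searched, the core is contained in the full element and can overlap the antioxidant element, and a match is a description of the sequence only.

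Of 38 immediate early genes listed, 36 were on the array and 27 were measured. Among these 25 lay above 0, 4 were called, 18 had an unadjusted p under 0.05 with βL higher and 0 with βL lower, and the median was 0.49 log2. Of all genes, 4.30% had such a p with βL higher and 3.62% with βL lower, and the median was -0.01. Of the 27 measured, 25 were above background on all 4 arrays. Among those 25, 23 lay above 0, 4 were called and the median was 0.44. An unadjusted p under 0.05 with βL higher was found for 16 of them, and with βL lower for 0. Their arrays lay apart with βL higher in 19, or 76.0%, beside 18.9% of all 8973 genes detected on all 4 arrays. Of those 8973 genes, 341 had such a p with βL higher. Junb, an AP-1 subunit, lay just outside the threshold at 9.11 and 9.12 on CR, and on βL at 10.02 and 10.14 (0.97 log2, adjusted p = 0.0553 from limma). Egr4 was at 10.35 and 10.45 on CR, and on βL at 11.26 and 11.22 (0.84 log2, adjusted p = 0.0926 from limma). Fosb had a difference of 0.61, Dusp1, a phosphatase of MAP kinases, of 0.60, and Egr1, which was bright on all arrays at 13.35 to 13.89, of 0.44 log2. None of these passed (adjusted p = 0.349 to 0.453 from limma). Bdnf, the neurotrophin whose transcription follows activity more slowly, had a difference of 0.32 (adjusted p = 0.547 from limma). Homer1, a postsynaptic scaffold, lay on the other side of 0 at -0.22 (adjusted p = 0.618 from limma), where CR was at 11.20 and 11.07 and βL at 10.95 and 10.88.

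**Figure D3:**
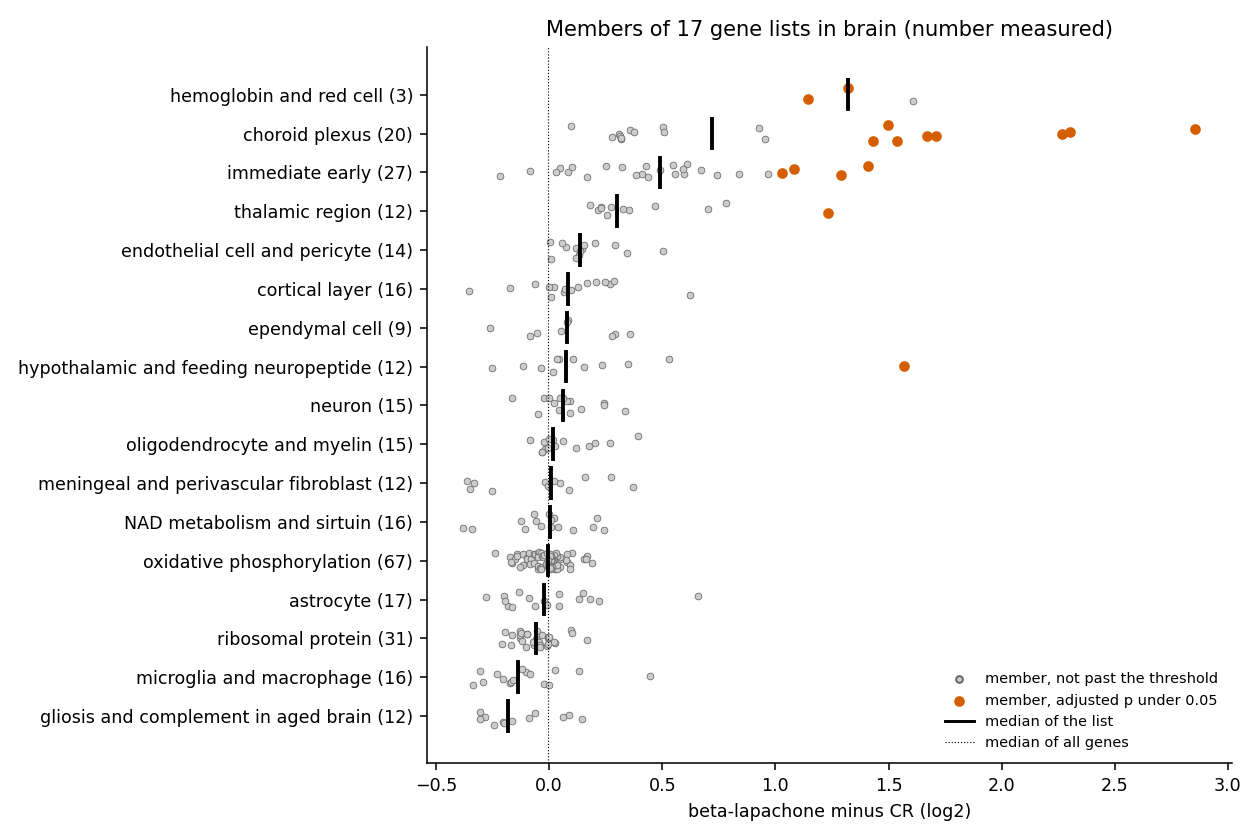
Difference between the diets (βL minus CR, log2) for the measured members of 17 gene lists, ordered by the list's median (black bar), with called members in orange and the median of all 9738 genes as a dotted line. The choroid plexus median of 0.72 includes 6 members that passed the filter through βL alone, and over the members detected on all 4 arrays it is 0.37, beside 0.44 for the immediate early list.

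Markers of other brain regions were among the calls, 1 of thalamus and 1 of hypothalamus. Prkcd, a protein kinase C isoform abundant in thalamic relay neurons, was at 7.19 and 7.30 on CR and at 8.44 and 8.51 on βL, 2.35-fold higher (adjusted p = 0.0301 from limma). Of 20 thalamic genes on the array, 12 were measured, and all of these were above background on all 4 arrays. All 12 lay above 0 with a median of 0.30 log2, 7 had an unadjusted p under 0.05, and in 11 the arrays lay apart. Of all 8973 genes detected on all 4 arrays, 341 had such a p with βL higher. For 18.9% of those genes the arrays lay apart in this direction. Tcf7l2, a transcription factor of the thalamus, was at 6.72 and 6.92 on CR, and on βL at 7.69 and 7.51 (0.78 log2, adjusted p = 0.286 from limma). Tnnt1, a troponin that marks some thalamic nuclei, had a difference of 0.70 and Zic1, a zinc finger factor of medial thalamus and septum, of 0.47 (adjusted p = 0.441 from limma for each). Only Prkcd of this list passed.

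Pmch, which encodes the feeding peptide melanin-concentrating hormone and is made by neurons of the lateral hypothalamus, was at 4.81 and 4.59 on CR, not above background, and at 6.16 and 6.38 on βL. The filter kept it through βL alone, so that it had to differ. It was at least 2.04-fold higher (adjusted p = 0.0328 from limma), but with the authors' own normalized values the difference was 0.51 log2 and did not pass (adjusted p = 0.0785 from limma). The other 11 measured neuropeptide and hypothalamic genes did not pass. Gal, which encodes galanin, had a difference of 0.53, Trh, thyrotropin-releasing hormone, of 0.35 and Vip, vasoactive intestinal peptide, of -0.25 (adjusted p = 0.374, 0.499 and 0.600 from limma). The median of the 12 was 0.07. The striatal and hippocampal lists had medians of -0.07 and -0.12 and no call. Of 16 striatal and 12 hippocampal genes detected on all 4 arrays, 4 in each list lay above 0. The striatal members with the smallest p, Scn4b, Pdyn, Ppp1r1b and Gpr6, had differences of -0.23 to -0.37. Their βL arrays both lay below both CR arrays, as was so for 21.9% of all genes detected on all 4 arrays. In 2 striatal genes the arrays lay apart with βL higher. The boundaries of the tissue taken as cortex are not given in the sources used here, and the part of dissection in the thalamic and hypothalamic values was not tested.

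No probe was lower on βL at an adjusted p under 0.05 from limma. The smallest p belonged to Plin4, a lipid droplet protein, at 6.66 and 6.69 on CR, and on βL at 5.25 and 5.60, a difference of -1.25 log2 (SE 0.14, adjusted p = 0.0896 from limma). Fam171a1 was at 7.75 and 7.56 on CR, and on βL at 6.82 and 6.81 (-0.84, adjusted p = 0.142 from limma). Kcnip2, which modulates Kv4 potassium channels, had 3 probes, of which 1 was at 6.39 and 6.53 on CR, and on βL at 5.62 and 5.75 (-0.77, adjusted p = 0.199 from limma). The gene's other probes had differences of -0.22 and, at the brightest, -0.18, where the arrays of the diets overlapped. The arrays of Plin4 and Fam171a1 did not overlap, as was so with βL lower for 21.9% of the genes detected on all 4 arrays. Sult1a1, a phenol sulfotransferase, followed with a difference of -0.80 (adjusted p = 0.263 from limma). The other 6 of the 10 probes with the smallest p on this side, for Clspn, Pard3, Tmem168, Erdr1, Arhgap15 and Nmb, had differences of -0.58 to -0.72 and adjusted p of 0.267 to 0.359 from limma. Pard3, a cell polarity protein, was not above background on either βL array and at least 1.38-fold lower there. Plin4 and Fam171a1 passed without background correction and with a larger offset. Plin4 also passed with median scaling, and Fam171a1 with the 3 diets fitted together. With a prior variance that follows intensity, Plin4, Fam171a1, Sult1a1 and Erdr1 passed.

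Plin4 and Sult1a1 are in the list of glucocorticoid-responsive genes, of which 21 were measured. This list had a median of -0.03, with 10 members above 0 and 11 below and no call. Sgk1, a kinase induced by glucocorticoids, had a difference of -0.28 and Fkbp5, a chaperone of their receptor, of -0.18 (adjusted p = 0.559 and 0.680 from limma), while Dusp1 and Per1, also members, were at 0.60 and 0.41.

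Genes tied to the action of βL had no call. Nqo1, the enzyme that reduces βL, was at 6.59 and 6.36 on CR and at 5.96 and 6.30 on βL, a difference of -0.34 log2 (SE 0.15, adjusted p = 0.607 from limma). Sirt1, the NAD-dependent deacetylase, was at 7.97 and 8.16 on CR, and on βL at 8.34 and 8.28, a difference of 0.24 (SE 0.11, adjusted p = 0.606 from limma). The other measured sirtuins, Sirt2, Sirt3, Sirt5, Sirt6 and Sirt7, had differences of -0.07 to 0.21 at their brightest probe. Of 16 genes of NAD metabolism measured, 8 lay above and 8 below 0, with a median of 0.003. Ppargc1a, the coactivator of mitochondrial biogenesis, was at 9.22 and 9.93 on CR, and on βL at 10.09 and 9.81 (0.37, SE 0.25, adjusted p = 0.710 from limma), so that the diets overlapped. Without CR replicate 1, the array that stood low for many probes, the difference was 0.02. Tfam, which packages mitochondrial DNA, had a difference of -0.33 (adjusted p = 0.517 from limma). The 67 genes of oxidative phosphorylation had a median of -0.01 and lay within -0.24 and 0.19, with 0 at an unadjusted p under 0.05.

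Glial and inflammatory lists had no call either. Of 16 microglia and macrophage genes, 13 lay below 0 with a median of -0.14. Aif1, which encodes the microglial protein Iba1, was at 7.82 and 7.73 on CR and at 7.48 on both βL arrays (-0.29, adjusted p = 0.547 from limma). A dimmer probe of Aif1 had a difference of -0.05. Of 12 genes of gliosis and complement that are often higher in the aged brain, 9 lay below 0, with a median of -0.18, and C4b, of the complement system, had a difference of -0.28 (adjusted p = 0.569 from limma). Lyz2, which encodes lysozyme and is in both lists, had a difference of -0.31 (adjusted p = 0.578 from limma). At its dimmer probe the difference was -0.12 and the arrays of the diets overlapped. Astrocyte, myelin and neuron genes had medians of -0.02, 0.02 and 0.06. Among 31 ribosomal protein genes 26 lay below 0, with a median of -0.06. Over all 44 lists, members were called in 5: choroid plexus, immediate early, red cell, thalamic and hypothalamic. The call in the hypothalamic list was that of Pmch, which the filter kept through βL alone.

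The control brain arrays, which were in none of the tests above, were set beside both diets after the 6 brain arrays had been normalized together. For 17 of the 20 called probes both control arrays lay between the diets. Ttr was at 13.61 and 13.45 on control, beside 11.78 and 11.74 on CR and 14.71 and 14.56 on βL. Kl was at 6.67 and 6.77 on control, beside 5.65 and 5.78 on CR and 7.87 and 8.10 on βL. Npas4 was at 8.15 and 7.99 on control, above both CR arrays and overlapping βL at 8.02 and 8.03. Cldn2 on control overlapped CR and lay below βL. Prkcd was at 7.05 and 7.17 on control, below both diets. The control mean was nearer to CR for 14 probes and nearer to βL for 6, which were those of Ttr, Kcne2, Egr2, Npas4, Arc and Fos. The 4 called immediate early genes were thus all nearer to βL, while the red cell genes Hba-a1 and Hbb-bt were nearer to CR. The 20 probes were chosen because βL and CR lay apart on these same arrays, and a wide gap favours a position between the diets. No share over all tested probes was set beside the 17. Whether the diets moved these probes to opposite sides of control was not tested. Since the same control arrays also stand beside both diets, these positions are a description with no test.

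**Figure D4:**
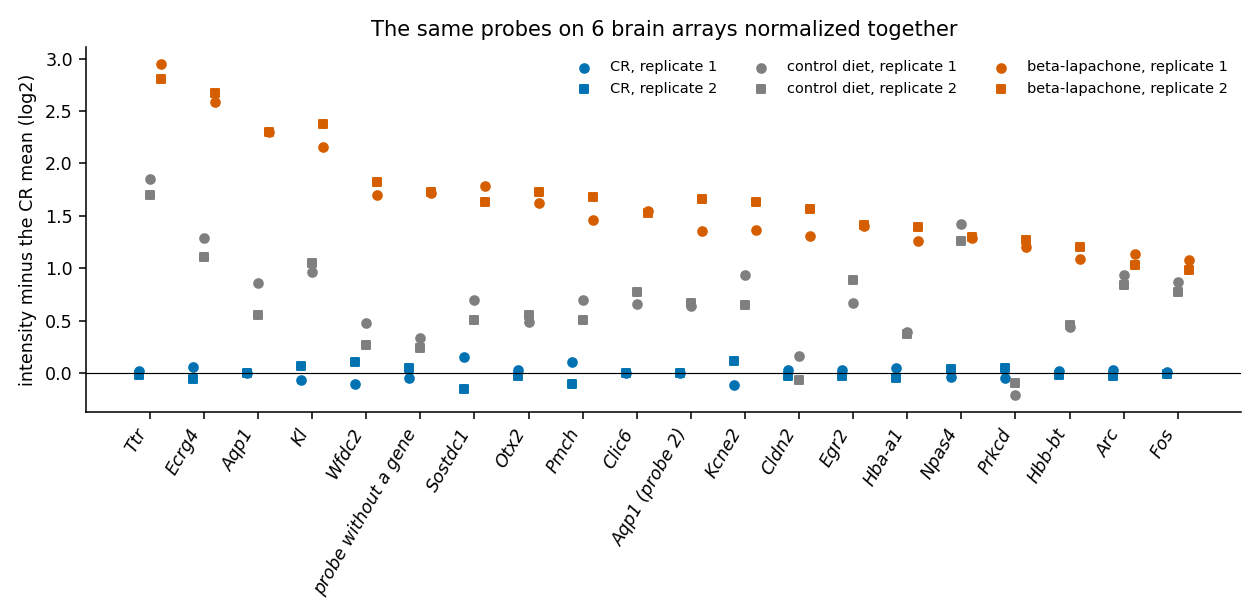
Intensity of the 20 called probes minus the CR mean (log2) on the 2 CR (blue), 2 control (grey) and 2 βL arrays (orange), with the 6 brain arrays normalized together. The control arrays lie between the diets for 17 probes, level with βL for Npas4 and below both diets for Prkcd. The probes were chosen for the gap between the diets, which favours a position between them.

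Muscle arrays of the same diets, 3 each, were used to ask where the difference between βL and CR itself differed between tissues. Of 10985 probes detected in both tissues, limma's interaction term called 2 (0.0182%). Aqp1 differed by 1.87 log2 in brain and -0.03 in muscle, and Prkcd by 1.35 and -0.13 (adjusted p = 0.0455 from limma for each). In brain both probes of Aqp1 were undetected on CR and kept through βL alone, so that they had to differ there. The gene's other probe, at 1.17 and -0.22, did not pass (adjusted p = 0.196 from limma). Hba-a1 had a difference of 1.68 in brain and 1.17 in muscle, and Hbb-bt of 1.26 and 1.88, and neither passed the interaction test (adjusted p = 0.748 and 0.828 from limma). Of the 8 choroid plexus genes called in brain, 3 (Aqp1, Clic6 and Sostdc1) were detected on enough muscle arrays to enter this test.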

How the data were processed

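RNA of brain on CR and on βL, 2 arrays each, had been hybridized to Illumina BeadChips. Probe intensities before normalization were deposited by the authors from BeadStudio. The detection p-values deposited beside them compare each probe with negative control beads. A second deposited table holds the authors' quantile-normalized intensities of all 14 arrays and served as an alternative. Samples were grouped by the labels.

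Here the background was modelled by normexp from the detection p-values (offset 16), the 4 arrays were quantile-normalized together and log2 values taken (limma 3.58.1, R 4.3.3). Kept were the probes whose detection p was below 0.05 on 2 or more arrays. The diets were compared with lmFit and eBayes and Benjamini-Hochberg adjustment over 14193 probes. Of all probes, 23978 carried 1 gene symbol and 1719 none. In the 44 gene lists a gene was represented by its brightest kept probe (9738 genes), and lists are described by counts and medians with no test. The steps were tested on simulated data. They called 99 of 100 probes changed 2-fold, 100 of 100 changed 4-fold, and 19 unchanged probes. The noise was drawn independently with the spread that the fit had estimated, which real arrays need not follow. Depth has no counterpart on arrays, and their number limits the precision.

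The genes named are those called, the 10 with the smallest p on the lower side, up to 4 members with the smallest p of each list, Nqo1, the sirtuins and Ppargc1a. Other members were named after their values were seen. The comparison, the lists and the motifs were chosen with earlier results of these data known. The cAMP element core, the serum response element and TAATCC were added after the promoters were read. Alternatives were another background correction, offset, scaling, filter and prior, the authors' values, 1 probe per gene, a replicate block, the 3 diets fitted together, the methods' t-test and each array left out.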

Additional observations from a re-analysis of the deposited data

Results flagged for a closer look

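The difference between βL and CR was larger in brain than in muscle for 2 probes by limma's interaction test over 10 arrays. For Aqp1 the brain value exceeded the muscle value by 1.91 log2 (SE 0.22), and for Prkcd by 1.49 (SE 0.17), with an adjusted p of 0.0455 from limma for each. The Aqp1 probe passed the filter in brain through βL alone, so that it had to differ there. The gene's other probe, at 1.39 log2, did not pass (adjusted p = 0.196 from limma). Without background correction limma called 0 probes in this test, and with detection on every array of both tissues it called 1. The cause was not tested.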

How the results depend on the processing

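The 20 called probes kept their direction under every alternative that measured them. Against 20 higher and 0 lower, limma called 28 and 2 without background correction or with an offset of 50, 22 and 1 with median scaling (which moved the median of all probes to -0.09 and ended the calls of Arc and Fos), 31 and 1 (32 in all) with the 3 diets fitted together, and 31 and 4 (35 in all) with a prior variance that follows intensity. It called 12 higher without the filter on dim probes, where more probes were tested. The authors' values gave 23, of which 16 were among the 20, and so ended 4 calls, Pmch, Cldn2, Kcne2 and 1 probe of Aqp1. The methods' t-test after adjustment called 1 higher and 1 lower, 2 in all, the lower one being a probe with no spread within either diet. Leaving out 1 array gave 0 to 6 calls.

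The labels do not say whether same-numbered arrays share anything beyond the number. Over all probes their deviations correlated with r = -0.12. A single correlation over all probes cannot tell whether a pairing acted on some of them. With the replicate block limma called 4 probes (Aqp1, Ecrg4, Kl and Ttr), and with the numbers crossed, chosen after seeing the data, 19.

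The medians of the choroid plexus, immediate early and red cell lists were 0.47, 0.38 and 1.11 without background correction, 0.35, 0.42 and 0.91 with the authors' values, and 0.48, 0.40 and 1.18 with an offset of 50. With median scaling those of the immediate early and red cell lists were 0.43 and 1.19, and with detection on all 4 arrays those of the choroid plexus and immediate early lists were 0.37 and 0.44. Leaving out 1 array gave 0.67 to 0.76, 0.44 to 0.53 and 1.26 to 1.38. Interaction calls between tissues numbered 0 without background correction and 1 with detection on all arrays, against 2. Signal near background limits the fold changes of the dim probes.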
